A study of Mus musculus with 6 samples.

Results

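The clustered histone genes are the replication-dependent genes for histones H1, H2A, H2B, H3 and H4, which lie together in the mouse genome and carried older symbols starting Hist1h, Hist2h, Hist3h or Hist4h. The platform annotation used here holds no symbol of that form, so members were found by matching its gene IDs to the older symbols in a reference gene table. Of 70 such genes in that table, 30 had a probe set named with 1 gene and are the members here, out of 22180 genes measured in this way. They comprise 5 of 6 H1 genes, 8 of 20 H2A genes, 9 of 19 H2B genes, none of 12 H3 genes and 8 of 13 H4 genes, and 2 of the 30 are pseudogenes (H2af-ps2 and H2bu1-ps). H3 could be read only from probe sets that the annotation assigns to several histone genes at once, which are described separately.

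DP42 cells, a mouse myeloma line, were grown for 24 h by themselves, together with mouse B cells, or together with mouse neutrophils, and each condition was measured on 2 arrays. The B-cell co-culture is named as the control in the study's design. The neutrophil group is labelled "neutrophils (IMC)", its titles name IMCs and its descriptions name myeloid cells, while its cell type label is DP42. The titles of the B-cell group likewise name co-cultured B-cells and not DP42. Cells from co-culture were flow sorted before total RNA was extracted, and no genotype, age or strain of the co-cultured cells was given in the sources used here. The labels do not say whether a group's 2 arrays hold RNA of separate cultures. Each p-value therefore reflects array-to-array spread that may be only technical.

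Histones package DNA: H2A, H2B, H3 and H4 form the core of the nucleosome, and H1 binds the linker DNA between cores. The clustered genes are transcribed mainly in S phase, and their mRNAs end in a conserved stem-loop bound by SLBP in place of a poly(A) tail. Many copies encode the same or nearly the same protein, so probe sets may take signal from near-identical copies and the level of any single gene below is uncertain. The sources used here do not say how far the labelling reached mRNAs without a poly(A) tail.

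The promoters of 6 members are shown because these genes include linker histones and H4 genes that lay lower with B cells than with neutrophils, and an H2B gene that carries the octamer. The sequences come from RefSeq (GRCm38.p6), cover the 100 bases before the annotated start and are written 5′ to 3′ on the gene's strand. Capitals mark the CCAAT box, the TATA box form TATAAA, the octamer ATTTGCAT of octamer-binding factors, and the letters GGTCCG, which were added after the sequences had been seen. H1f1 is at chr13:23763568-23763667 (plus strand), H1f2 at chr13:23738707-23738806 (plus), H1f3 at chr13:23554932-23555031 (plus), H2bc18 at chr3:96269600-96269699 (plus), H4c9 at chr13:22041363-22041462 (minus) and H4c17 at chr13:21811646-21811745 (plus).
H1f1: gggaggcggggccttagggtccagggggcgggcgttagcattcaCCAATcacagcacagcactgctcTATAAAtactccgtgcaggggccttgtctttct
H1f2: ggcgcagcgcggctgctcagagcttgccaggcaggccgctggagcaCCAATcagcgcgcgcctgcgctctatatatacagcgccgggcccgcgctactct
H1f3: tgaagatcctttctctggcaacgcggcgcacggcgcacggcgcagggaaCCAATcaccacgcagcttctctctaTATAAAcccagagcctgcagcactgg
H2bc18: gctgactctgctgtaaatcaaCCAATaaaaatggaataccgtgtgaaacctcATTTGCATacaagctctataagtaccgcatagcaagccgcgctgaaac
H4c9: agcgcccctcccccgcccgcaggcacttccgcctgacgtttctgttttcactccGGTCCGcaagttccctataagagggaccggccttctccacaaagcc
H4c17: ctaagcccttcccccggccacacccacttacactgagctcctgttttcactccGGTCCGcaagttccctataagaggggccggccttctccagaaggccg

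The types differed in which letters their promoters held when 250 bases before the start were searched on both strands. RefSeq promoters were matched for 26 of the 30 members and for 62 of the 70 genes, which gave 63 promoters. The octamer ATTTGCAT stood in 7 of 18 H2A and 7 of 17 H2B promoters, in no H1, H3 or H4 promoter, and in 1.60% of all 32851 promoters. CCAAT stood in 6 of 6 H1, 18 of 18 H2A, 17 of 17 H2B, 8 of 10 H3 and 3 of 12 H4 promoters, against 33.8% of all promoters. TATAAA was found in 4 H1, 7 H2A, 8 H2B, 4 H3 and 6 H4 promoters, against 12.4% of all. GGTCCG stood in 9 of 12 H4 promoters, in 1 H2B and 1 H3 promoter and in no H1 or H2A promoter, against 6.72% of all. H4c9 and H4c17 shared an identical run of 38 bases that includes GGTCCG. A match describes the sequence, not a bound site.

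Values below are log2 expression values per probe set (RMA, a method that subtracts background, normalises between arrays and summarises probes), so 1 unit is a doubling of signal, and the brightest probe set stands for each gene. Differences were fitted with limma over all 22180 genes and adjusted by the Benjamini-Hochberg method, with an adjusted p under 0.05 as the threshold. Probe set values spanned 3.04 to 14.03, with array medians of 7.09 to 7.22. B-cell replicate 1 correlated more closely with neutrophil replicate 1 (0.996 across genes) than with B-cell replicate 2 (0.992). Some differences between co-cultures are therefore also given with either B-cell array left out. The mean of 6 plasma cell markers was 7.90 to 7.98 on all arrays, although single markers went both ways: both neutrophil arrays lay above both B-cell arrays for Irf4, Xbp1 and Prdm1 and below them for Tnfrsf17 and Jchain. The mean of 15 neutrophil markers was 7.02 and 7.05 on the neutrophil arrays against 6.48 to 6.61 on the other 4.

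Between the co-cultures, the histone members as a group had slightly higher values with neutrophils, but no single member passed the threshold. The 15 members that were higher at an unadjusted p under 0.05 were 3 H1, 3 H2A, 4 H2B and 5 H4 genes, and no test compared the types. The median difference, neutrophil minus B-cell, was 0.27 (range -0.35 to 0.69, n = 30 members), against 0.01 over all genes, and 26 members had a positive difference, against 51.7% of all genes. By limma, 0 of 30 members were called (percent of all genes called: 0.0496), with a lowest adjusted p of 0.123. By that unadjusted p, 0 members were lower, and of all genes 8.10% were higher and 2652 of 22180 lower. Both neutrophil arrays lay above both B-cell arrays for 19 members, against 30.0% of all genes, and below them for 2, against 26.7%. In RNA from a bulk population, a different share of cells in S phase and a different amount of histone mRNA per cell cannot be told apart.

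Brightness moved with this result. Over the 11090 genes whose mean level was not below the median gene's, called brighter genes from here on, the median difference was 0.13. Over the 20 members among them it was 0.32, with 11 members higher at an unadjusted p under 0.05 against 14.4% of the brighter genes. A positive difference was seen in 19 of these 20 members and in 8881 of the 11090 brighter genes. Both neutrophil arrays lay above both B-cell arrays for 13 of the 20 and for 5776 of the brighter genes. When only brighter genes were tested, 2 members rose with neutrophils against B cells, H4c17 (adjusted p = 0.0351, limma) and H4c9 (adjusted p = 0.0481, limma), against 0.821% of genes called and 0.370% called higher. Without B-cell replicate 1, 11 of 30 members were called, all higher, by limma (H1f1, H1f2, H1f3, H2ac20, H2bc9, H2bc18, H2bu1-ps, H4c1, H4c9, H4c14 and H4c17, adjusted p 0.0174 to 0.0408), against 24.6% of all genes called and 11.7% called higher, and the lone B-cell array was assumed to vary like the other groups. The mean of 1390 olfactory and vomeronasal receptor genes, which are not expected in myeloma cells and serve as a reading of background, was 5.56 and 5.51 alone, 5.27 and 5.59 beside B cells and 5.13 and 5.05 beside neutrophils. It was thus lowest on the neutrophil arrays and differed between the B-cell arrays, so it cannot be fully separated from the groups. With it as a covariate the median neutrophil minus B-cell difference was 0.24 for all members, 0.094 for H1, 0.19 for H2A, 0.23 for H2B and 0.30 for H4. In that fit 0 members were called by limma and 7 had an unadjusted p under 0.05, against 773 of 22180 genes.

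Against cells cultured alone, the medians of both co-cultures were closer to 0. The median difference, neutrophil minus alone, was 0.11 (range -0.36 to 0.60), against 0.02 over all genes and 0.11 over the brighter genes, where the 20 brighter members had 0.08 and 2 of them were higher at an unadjusted p under 0.05 against 9.59%. By limma 1 member was called (percent of all genes called: 1.49; called higher: 0.131), and 6 members were higher and 0 lower at an unadjusted p under 0.05, against 5.97% of all genes higher and 11.7% lower. A positive difference was seen in 22 members, against 54.4% of all genes. Among the brighter, it was seen in 15 of 20 members and in 8840 of 11090 genes. The arrays of these groups stood apart upwards for 15 members, against 35.6% of all genes, and downwards for 3, against 27.4%. Among the brighter, they stood apart upwards for 11 of 20 members and for 6661 of 11090 genes. The median difference, B-cell minus alone, was -0.09 (range -0.59 to 0.23), against -0.002 over all genes, and 10 members had a positive difference, against 49.5% of all genes. By limma 0 members were called (percent of all genes called: 0), the lowest adjusted p was 0.887, and 8 members were lower and 0 higher at an unadjusted p under 0.05, against 2.30% of all genes lower and 1.61% higher. Of the 20 brighter members, 7 were lower by that measure, against 1.79% of the brighter genes, with a median of -0.21 against -0.01. Both B-cell arrays lay below both arrays of cells alone for 13 members, against 13.5% of all genes, and above them for 2, against 13.5%. The 3 comparisons share arrays, so they are not independent of each other.

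**Figure D1:**
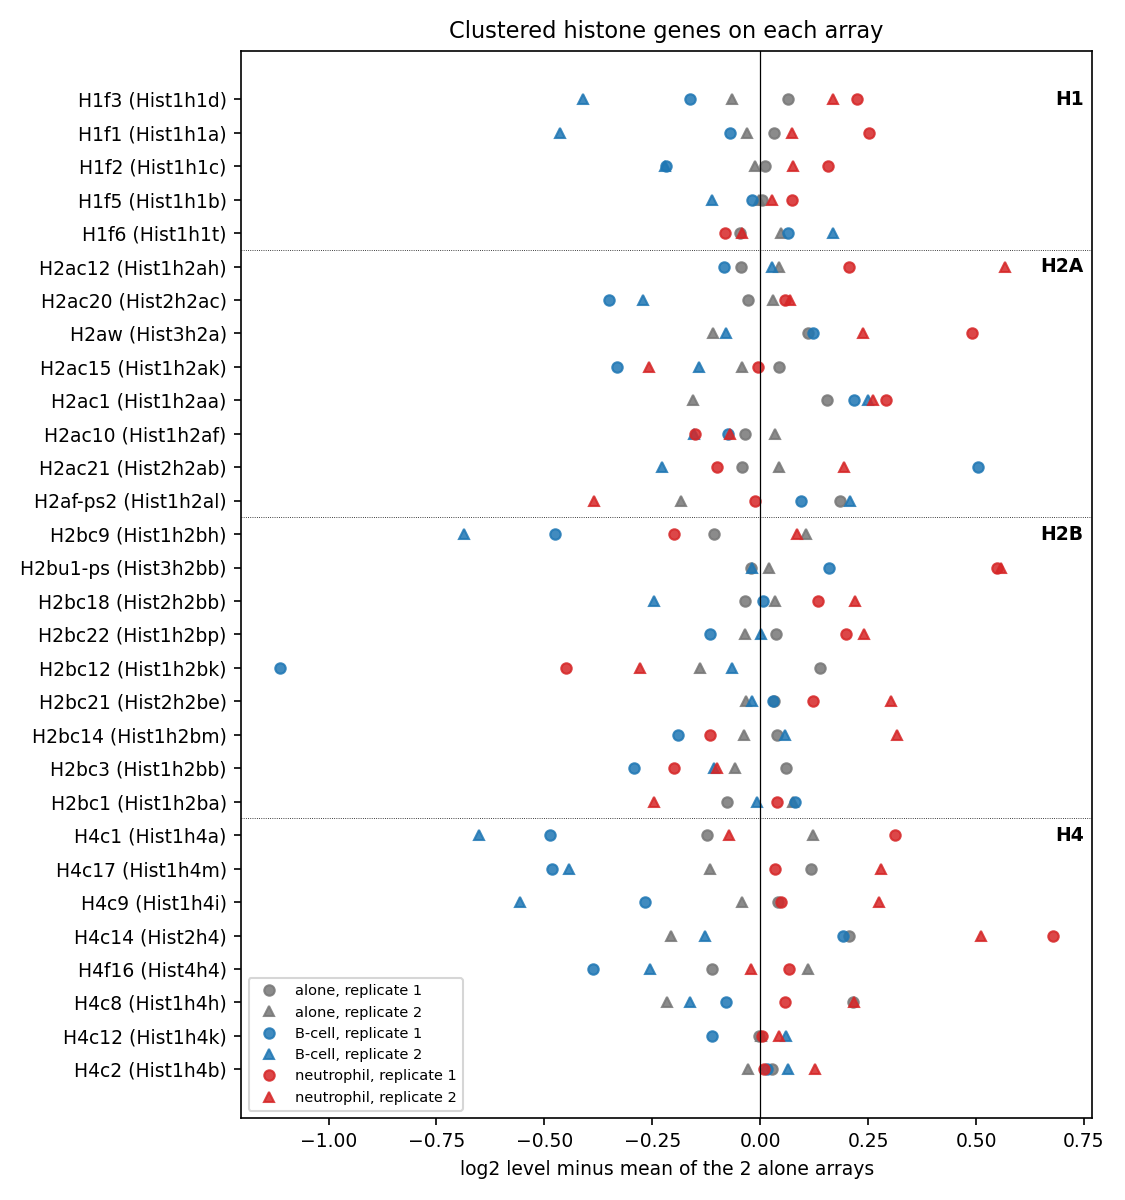
Each of the 30 members (rows, by histone type) is shown on the 6 arrays as its log2 level minus the mean of the 2 arrays of cells alone (horizontal axis), with grey for alone, blue for B-cell and red for neutrophil and the marker shape for the replicate. Both blue points lie to the left of both grey ones for 4 of 5 H1, 3 of 8 H2A, 2 of 9 H2B and 4 of 8 H4 genes. Of all genes, 13.5% have this order.

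Linker histones kept 1 order across the groups for 4 of the 5 H1 members. H1f3 (Hist1h1d), a somatic linker histone, was at 8.55 and 8.42 alone, 8.32 and 8.07 beside B cells and 8.71 and 8.65 beside neutrophils. The groups did not overlap, with B-cell arrays lowest and neutrophil arrays highest. The fitted difference, neutrophil minus B-cell, was 0.48 ± 0.11 (SE, 1.40-fold), with an adjusted p of 0.142 (limma, 2 arrays a group), so it did not pass. It was 0.61 without B-cell replicate 1 and 0.36 without B-cell replicate 2. H1f1 (Hist1h1a) was at 9.58 and 9.52 alone, 9.48 and 9.08 beside B cells and 9.80 and 9.62 beside neutrophils, a difference between co-cultures of 0.43 ± 0.14. Its B-cell arrays were farther apart from each other than the other pairs. H1f2 (Hist1h1c), a widely expressed somatic form, was at 9.87 and 9.84 alone, 9.64 on both B-cell arrays and 10.01 and 9.93 with neutrophils. Its difference between co-cultures was 0.34 ± 0.09 (adjusted p = 0.154, limma), or 0.34 without B-cell replicate 1 and 0.33 without replicate 2. H1f5 (Hist1h1b), the brightest H1 gene, lay between 11.77 and 11.96 on all arrays, with a difference of 0.12 ± 0.09.

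The fifth H1 member, H1f6 (Hist1h1t), encodes the testis-specific linker histone and was below the lower quartile of probe sets on all 6 arrays, at 5.67 to 5.92. Its difference between co-cultures was -0.18 ± 0.10, opposite in sign to the somatic H1 genes. The order B-cell below alone below neutrophil on every array held for 6 members, H1f1, H1f2, H1f3, H1f5, H2ac20 and H4c9, against 3.13% of all genes and 5.73% of the brighter genes. The mean of the 5 H1 members was 9.12 and 9.09 alone, 9.02 and 8.90 beside B cells and 9.23 and 9.17 beside neutrophils. The H1 medians were 0.34 for neutrophil minus B-cell, 0.12 for neutrophil minus alone and -0.22 for B-cell minus alone. With the receptor gene mean as a covariate they were 0.094, -0.052 and -0.21, so the second turned sign.

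H4 genes had the highest median among the types between the co-cultures, 0.45 over 8 members. At an unadjusted p under 0.05, 5 of them were higher, against 8.10% of all genes. Of the H4 genes in the large cluster on chromosome 13, 3 lay lower on both B-cell arrays than on the other 4. Of all genes, 13.5% lay lower on both B-cell arrays than on both alone arrays, and 30.0% than on both neutrophil arrays. The share of all genes with both was not counted. H4c17 (Hist1h4m) was at 8.68 and 8.45 alone, 8.08 and 8.12 beside B cells and 8.60 and 8.85 beside neutrophils. The B-cell arrays lay below the other 4, and alone and neutrophil arrays overlapped. The difference, neutrophil minus B-cell, was 0.62 ± 0.12 (1.54-fold), with an adjusted p of 0.123 (limma). H4c1 (Hist1h4a) was at 7.13 and 7.38 alone, 6.77 and 6.60 beside B cells and 7.57 and 7.18 beside neutrophils. This gave the largest difference of any member between co-cultures, 0.69 ± 0.15 (1.61-fold, adjusted p = 0.132, limma). That difference was 0.77 without B-cell replicate 1 and 0.61 without replicate 2. H4c9 (Hist1h4i) was at 8.76 and 8.68 alone, 8.45 and 8.17 beside B cells and 8.77 and 8.997 beside neutrophils, a difference of 0.57 ± 0.13. All 3 genes were also below their level in cells alone on both B-cell arrays, with B-cell minus alone at -0.57 ± 0.15 for H4c1, -0.46 ± 0.12 for H4c17 and -0.41 ± 0.13 for H4c9, none of which passed the threshold.

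H4c14 (Hist2h4), in the cluster on chromosome 3, had another order. It was at 7.85 and 7.44 alone, 7.84 and 7.52 beside B cells and 8.33 and 8.16 beside neutrophils. Both neutrophil arrays were above the other 4, and the alone and B-cell arrays overlapped. Its difference was 0.60 ± 0.16 against alone (1.51-fold, adjusted p = 0.119, limma) and 0.56 ± 0.16 against B cells. H4f16 (Hist4h4), the lone histone gene of chromosome 6 among the members, was at 9.97 and 10.19 alone, 9.69 and 9.82 beside B cells and 10.14 and 10.06 beside neutrophils. Its 2 probe sets disagreed: neutrophil minus alone was 0.02 ± 0.11 on the brighter and 0.36 ± 0.11 on the other, while neutrophil minus B-cell was 0.34 ± 0.11 and 0.42 ± 0.11. H4c12 (Hist1h4k), near the top of the scale, stayed between 13.04 and 13.21 on all arrays, and H4c2 and H4c8 were below the lower quartile of probe sets on all 6 arrays.

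H2A members had medians of 0.07, 0.05 and -0.004 in the 3 comparisons in the order used above, with 6 of 8 members positive between co-cultures. H2ac20 (Hist2h2ac), in the chromosome 3 cluster, was at 8.84 and 8.90 alone, 8.52 and 8.60 beside B cells and 8.93 and 8.94 beside neutrophils. Its groups did not overlap, and the B-cell arrays were lowest. Neutrophil minus B-cell was 0.37 ± 0.09 (1.30-fold, adjusted p = 0.146, limma) and B-cell minus alone was -0.31 ± 0.09. H2aw (Hist3h2a), an H2A gene of the small chromosome 11 cluster, was at 7.82 and 7.60 alone, 7.83 and 7.63 beside B cells and 8.20 and 7.95 beside neutrophils. Alone and B-cell arrays matched closely, and neutrophil minus alone was 0.36 ± 0.13 (adjusted p = 0.208, limma). H2ac12 (Hist1h2ah) had a like difference between co-cultures, 0.41 ± 0.13, but was below the lower quartile of probe sets on all 6 arrays. H2ac1 (Hist1h2aa), the testis-specific H2A, was at 7.07 and 6.76 alone and between 7.13 and 7.21 in both co-cultures. H2ac10 (Hist1h2af) lay at 12.51 to 12.70 and H2ac15 (Hist1h2ak) at 9.63 to 10.001. H2ac21 (Hist2h2ab) was at 10.70 and 9.97 on the B-cell arrays, which span the other 4. The lowest H2A difference between co-cultures was that of the pseudogene H2af-ps2, -0.35 ± 0.16.

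Among the H2B members stood the only histone probe set that passed the threshold in the main fit of all 6 arrays and all genes. That fit had no term for the replicate number. H2bu1-ps (Hist3h2bb), annotated as a pseudogene of the chromosome 11 cluster, was at 4.75 and 4.79 alone, 4.93 and 4.75 beside B cells and 5.32 and 5.33 beside neutrophils. Both neutrophil arrays were above the other 4, although the probe set was below the lower quartile of probe sets on every array and, in cells alone, below the receptor gene mean of 5.51 to 5.56. The difference, neutrophil minus alone, was 0.55 ± 0.10 (adjusted p = 0.0401, limma), a difference between dim signals for which no fold is given, and the difference against B cells was 0.48 ± 0.10 (adjusted p = 0.125, limma). The call was lost when either alone array or either neutrophil array was left out (adjusted p 0.168 to 0.283, limma), with quantile normalisation (0.0952) and with trend and robust variance (0.0679), and with the receptor gene mean as a covariate the difference was 0.31 (adjusted p = 0.870, limma).

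H2bc9 (Hist1h2bh), a protein-coding H2B gene of the chromosome 13 cluster, was at 8.81 and 9.02 alone, 8.44 and 8.23 beside B cells and 8.72 and 9.002 beside neutrophils. The B-cell arrays lay below the other 4, with B-cell minus alone at -0.58 ± 0.13 (adjusted p = 0.887, limma). Neutrophil minus B-cell was 0.52 ± 0.13 (1.44-fold, adjusted p = 0.148, limma), or 0.63 without B-cell replicate 1 and 0.42 without replicate 2. H2bc18 (Hist2h2bb), whose promoter above holds the octamer, was at 9.85 and 9.92 alone, 9.89 and 9.64 beside B cells and 10.02 and 10.10 beside neutrophils. H2bc21 (Hist2h2be), a gene that is also expressed outside S phase, was at 8.46 and 8.40 alone, 8.46 and 8.41 beside B cells and 8.55 and 8.73 beside neutrophils, a difference of 0.21 ± 0.10 against either group. These 2 genes were above the other groups on both neutrophil arrays, without passing the threshold.

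H2bc12 (Hist1h2bk) had the widest spread of the members, with 12.20 and 11.92 alone, 10.95 and 11.996 beside B cells and 11.61 and 11.78 beside neutrophils. Its difference, B-cell minus alone, was -0.59 ± 0.28 and came to -0.07 without B-cell replicate 1. H2bc22 (Hist1h2bp) was at 6.52 and 6.45 alone, 6.37 and 6.49 beside B cells and 6.68 and 6.73 beside neutrophils, a difference between co-cultures of 0.28 ± 0.10. H2bc3 (Hist1h2bb) was at 11.65 and 11.53 in cells alone, above both co-cultures, which overlapped at 11.30 to 11.49. H2bc14 (Hist1h2bm) lay at 8.73 to 9.23, with overlapping groups. The testis-specific H2B gene H2bc1 (Hist1h2ba) was below the lower quartile of probe sets on all 6 arrays, at 3.61 to 3.94. The H2B medians were 0.23, 0.10 and -0.07 in the same order of comparisons.

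**Figure D2:**
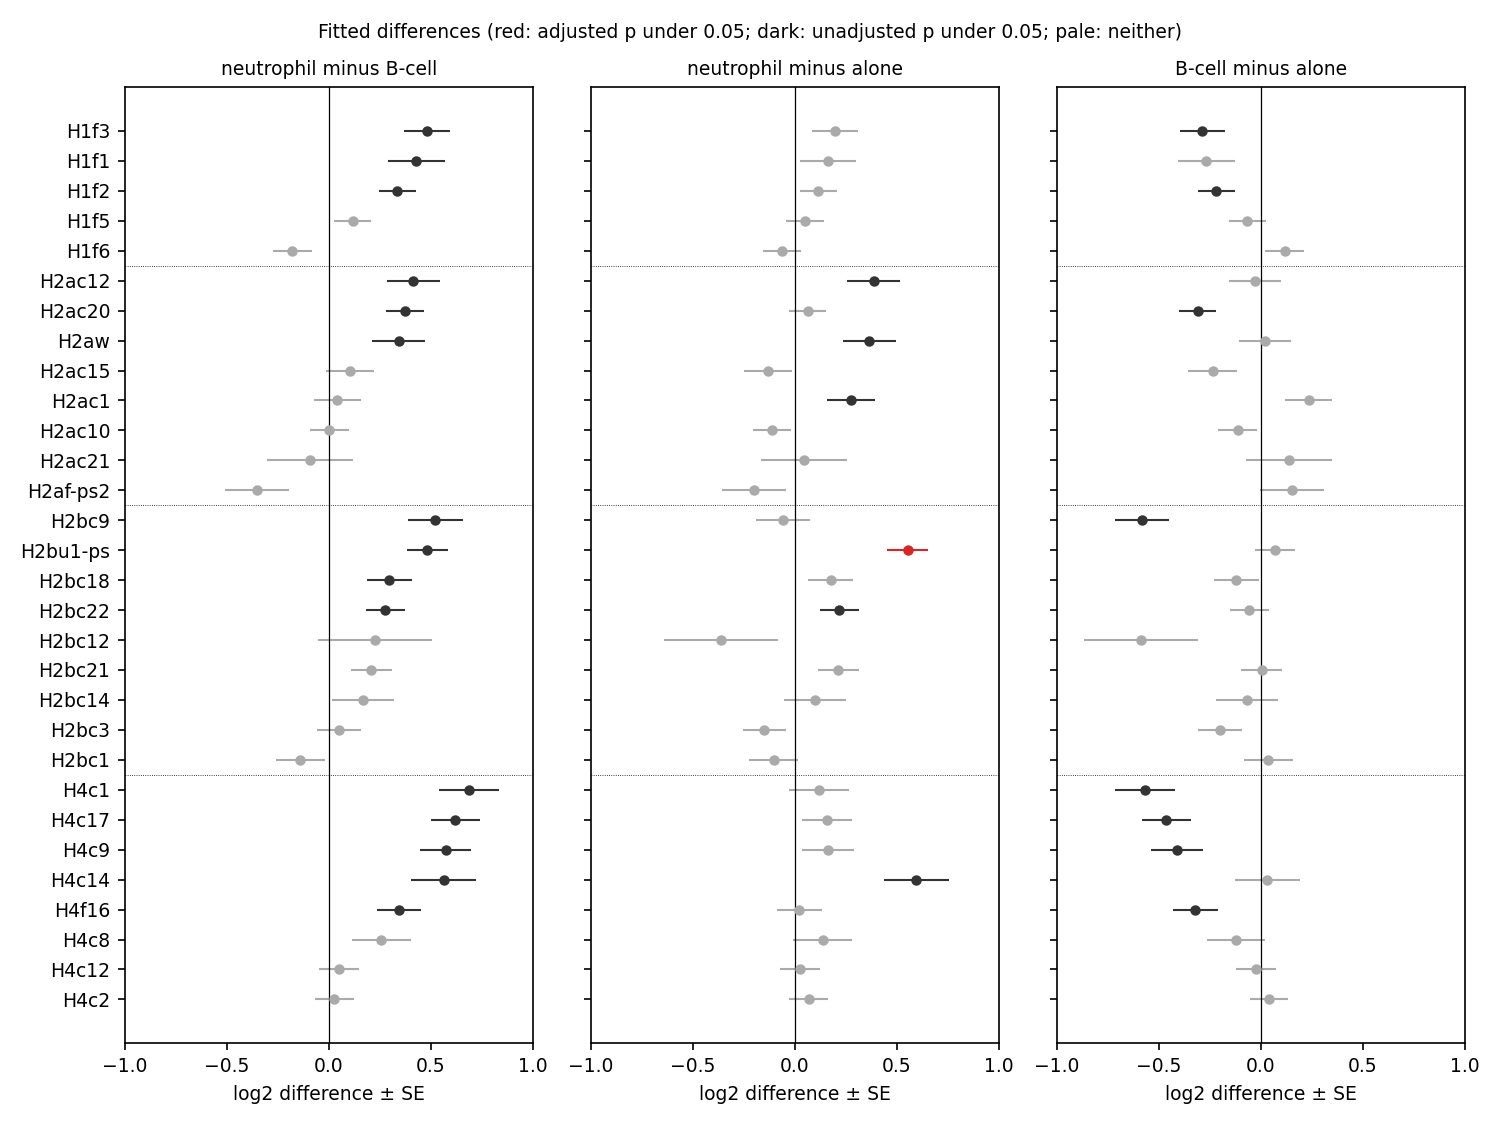
Fitted log2 differences (points) with SE (bars) are shown for the 30 members, 1 panel for each of the 3 comparisons, with red for an adjusted p under 0.05 and dark grey for an unadjusted p under 0.05. H2bu1-ps is the only red point, and the 15 dark points of the neutrophil minus B-cell panel all lie above 0.

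By genomic cluster, the median difference between co-cultures was 0.20 over 22 members on chromosome 13, 0.30 over 5 members on chromosome 3, 0.41 over 2 members on chromosome 11 and 0.34 for the member on chromosome 6. For neutrophil minus alone the medians were 0.08, 0.18, 0.46 and 0.02 in the same order. For B-cell minus alone they were -0.12, 0.01, 0.05 and -0.32. Members of a cluster share sequence and may share signal, so they are not independent of each other.

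Probe sets that the annotation gives to several histone genes were the only reading of H3. There were 38 of them, of which 3 pairs held identical values and were counted once, which left 35. They were fitted with limma among all 25335 named probe sets, an analysis added after the data had been seen, and 0 of them were called in any comparison (percent of named probe sets called: 0.00395 for neutrophil minus B-cell, 0.0710 for neutrophil minus alone and 0 for B-cell minus alone). At an unadjusted p under 0.05, 21 were higher with neutrophils than with B cells, 17 were higher with neutrophils than alone, and 10 were lower and 1 higher with B cells than alone. Of all named probe sets, 7.41% were higher and 12.3% lower in the first comparison, 5.44% and 12.3% in the second and 1.49% and 2.17% in the third. Their median differences were 0.40, 0.25 and -0.15. The order B-cell below alone below neutrophil on every array held for 13 of 35, against 3.23% of named probe sets.

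The mean of the 12 H3 probe sets was 7.25 and 7.22 alone, 7.20 and 7.02 beside B cells and 7.55 and 7.52 beside neutrophils. The neutrophil arrays were above the other 4, and alone and B-cell replicate 1 lay close together. The H3 median differences were 0.34 for neutrophil minus B-cell, 0.34 for neutrophil minus alone and -0.15 for B-cell minus alone. Some of these H3 probe sets were below the lower quartile of probe sets on all 6 arrays. One probe set assigned to 8 H3 genes was at 9.83 and 9.68 alone, 9.15 and 9.01 beside B cells and 10.21 and 10.07 beside neutrophils, a difference between co-cultures of 1.06 ± 0.11 (2.08-fold, adjusted p = 0.0823, limma). This was the largest difference between co-cultures among the 35 shared probe sets. Another assigned to 8 H3 genes lay at 11.21 to 11.41 on all arrays. A further probe set assigned to 8 H3 genes had -0.01 ± 0.22 between co-cultures and 0.58 ± 0.22 for B-cell minus alone. Probe sets for the same gene group thus disagreed in size and, for B-cell minus alone, in sign.

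The 5 shared H4 probe sets followed the single-gene H4 members in direction, with means of 7.12 and 7.03 alone, 6.73 and 6.66 beside B cells and 7.47 and 7.57 beside neutrophils and a median difference between co-cultures of 0.91. A probe set assigned to 13 H4 genes was at 7.02 and 6.84 alone, 6.34 and 6.59 beside B cells and 7.45 and 7.48 beside neutrophils, a difference of 1.00 ± 0.12 (2.00-fold, adjusted p = 0.0956, limma). Its 3 groups did not overlap. A probe set assigned to 10 H2A genes was at 10.07 and 10.005 alone, 9.28 and 9.14 beside B cells and 10.11 and 10.06 beside neutrophils, so that here the B-cell arrays alone stood apart, by -0.83 ± 0.09 against cells alone (adjusted p = 0.496, limma). The median difference between co-cultures was 0.48 over the 9 shared H2A probe sets, and so above the 0.07 of the single-gene H2A members. Of these 9, 5 were higher at an unadjusted p under 0.05, against 7.41% of named probe sets. The median was 0.13 over the shared H2B probe sets. The 5 shared probe sets with a mean level of 12 or more had a median difference between co-cultures of 0.00, and the other 30 had 0.50. Whether signal near the top of the scale compresses these differences was not tested.

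**Figure D3:**
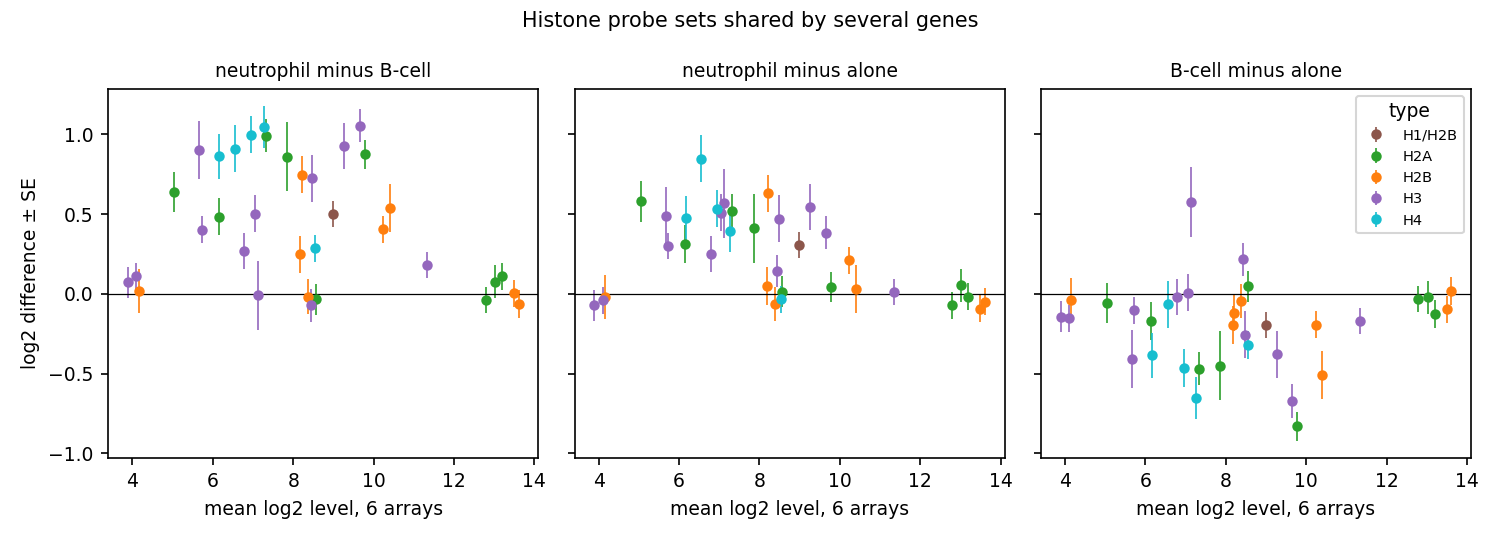
Fitted log2 differences with SE (vertical axis) of the 35 shared histone probe sets are plotted against their mean log2 level over the 6 arrays (horizontal axis), coloured by histone type, in 1 panel for each comparison. Probe sets at a level of 12 or more lie near 0 in all panels, and H4 and several H3 and H2A probe sets of lower level reach 0.9 to 1.1 in the neutrophil minus B-cell panel.

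The lists of genes that act around histones, S phase genes, histone mRNA processing, chaperones and replication-independent histones, had median differences between co-cultures of 0.13 to 0.17, against 0.27 for the members and 0.07 for the H2A members. For neutrophil minus alone their medians were 0.12 to 0.17, against 0.11 for the members. Of the S phase list, 22 of 24 genes were measured and all 22 had a positive difference between co-cultures, against 8881 of the 11090 brighter genes. Their median was 0.13, the same as that of the brighter genes. The differences ran from 0.05 to 0.34. By limma 0 of the 22 were called (percent of all genes called: 0.0496). At an unadjusted p under 0.05, 2 were higher, against 8.10% of all genes and 14.4% of the brighter genes. They were Gins1 (0.34 ± 0.15) and Gins2 (0.33 ± 0.11), which encode subunits of the replicative helicase. The mean of the 22 genes was 10.80 and 10.79 alone, 10.89 and 10.69 beside B cells and 10.94 and 10.97 beside neutrophils. B-cell replicate 1 was above cells alone in this list and replicate 2 below, whereas both B-cell arrays were below both alone arrays in the means of H1, H2B and H4 members. Pcna, the replication clamp, and Ccna2, cyclin A2, had the lowest differences of the list, 0.07 and 0.05.

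Histone mRNA processing genes had a median difference between co-cultures of 0.16 over 16 genes, and histone chaperones 0.17 over 17 of 19. Slbp, the stem-loop binding protein, was at 10.74 and 10.61 alone, 10.85 and 10.59 beside B cells and 10.86 and 10.90 beside neutrophils, a difference between co-cultures of 0.16 ± 0.11. Npat, the coactivator of histone gene transcription, was at 10.56 and 10.49 alone, 10.71 and 10.45 beside B cells and 10.78 and 10.72 beside neutrophils. Both genes overlapped between B-cell and alone arrays. The farthest members of these lists were Ncbp2, a cap-binding subunit, at 0.32 ± 0.12 and Daxx, an H3.3 chaperone, at 0.37 ± 0.12, and neither passed the threshold.

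The genes listed as replication-independent histones are mostly expressed also outside S phase, with polyadenylated mRNAs. They had a median difference between co-cultures of 0.13 over 8 of 11 genes. H2ax, the variant marked at DNA breaks, was at 12.14 and 12.07 alone, 11.89 and 12.08 beside B cells and 12.11 and 12.21 beside neutrophils. H2az1, an H2A.Z gene, was at 7.53 and 7.51 alone, 7.44 and 7.42 beside B cells and 7.72 and 7.61 beside neutrophils, a difference of 0.24 ± 0.09 (adjusted p = 0.223, limma). H3f3a and H3f3b, the H3.3 genes, were only on shared probe sets.

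**Figure D4:**
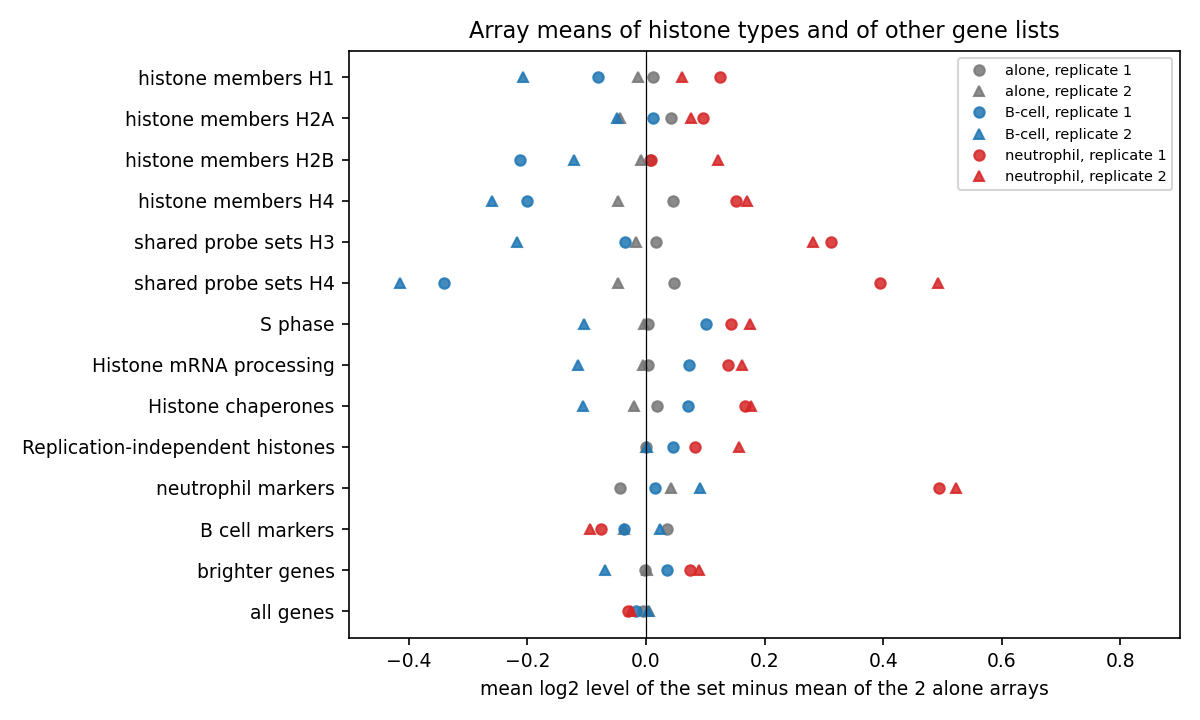
Mean log2 level of each gene set minus its mean over the 2 arrays of cells alone (horizontal axis) is shown for the histone types, the shared H3 and H4 probe sets, the other lists, the brighter genes and all genes (rows), with 1 point for each of the 6 arrays. H1, H2B and H4 members and shared H4 probe sets have both B-cell arrays below 0, and the neutrophil markers have both neutrophil arrays near 0.5.

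The mean of the neutrophil markers was higher on the neutrophil arrays, as given above. Of the 15 neutrophil markers, 5 were called higher by limma against alone, where 1.49% of all genes were called and 0.131% called higher. Against B cells 1 was called (percent of all genes called: 0.0496). The median difference of the 15 against alone was 0.38, with a range of 0.13 to 1.82. S100a9 overlapped between the groups, with 0.15 ± 0.17 against alone and 0.08 ± 0.17 against B cells. The 8 measured of 10 B-cell markers had array means of 9.14 to 9.27 and a median difference between co-cultures of -0.003, with Cr2, a complement receptor, lowest at -0.60 ± 0.13. In cells alone, Cd79a, Cd79b, Cd22 and Pax5 were already at means of 10.98 to 12.50, and Ms4a1, Fcer2a, Cr2 and Fcmr at 5.81 to 8.33. A list that is partly this bright in cells alone gives little reading of carried-over B cells. The part of co-cultured cells in the histone values was not tested.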

How the data were processed

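Total RNA from 6 arrays was analysed. The deposited table holds a log2 value for each probe set. RMA is the tool that the submitters' processing notes name. The array model, software version and annotation build are not given in the sources used here. Of 41345 probe sets, 23521 were named with 1 gene, 1814 with several and 16010 were unnamed here. The brightest probe set stood for each of 22180 genes, of which 21994 had an ID in the reference gene table (RefSeq, GRCm38.p6). One model with 3 group means was fitted to all 6 arrays with limma 3.58.1 (R 4.3.3), with 3 residual and 5.55 prior degrees of freedom and Benjamini-Hochberg adjustment per comparison. Members and lists were chosen with earlier results of these data known. Named genes were every called member, the highest and lowest member of each type in each comparison, and a preset list; further genes were named with their values in view. The number of arrays limits the precision. On simulated data for neutrophil minus alone (20 simulations, 200 of 22180 genes changed), 35.2% of 1.5-fold, 76.3% of 2-fold and 97.7% of 4-fold changes were recovered. No per-array detection call was used, and normalisation between arrays hides a change shared by most genes. Alternatives covered normalisation, brightness, probe set choice, variance settings, the array mean of receptor genes as a covariate, the replicate block and leaving out each array.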

Additional observations from a re-analysis of the deposited data

How the results depend on the processing

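Values are log2 medians in the order neutrophil minus B-cell (NB), neutrophil minus alone (NA) and B-cell minus alone (BA). With quantile normalisation over the 22180 genes, NB was 0.18 for all members, 0.17 for H1 and 0.13 for H2B, and H1f6 turned to 0.0085. NA was 0.043 for all members, 0.021 for H1 and -0.071 for H2A with 0 called (7 at an unadjusted p under 0.05, limma), and turned for H1f2 (-0.018), H1f6 (0.13), H2bc1 (0.059) and H4f16 (-0.11). Centred on array medians, NB was 0.33 for all members, 0.40 for H1, 0.14 for H2A, 0.29 for H2B and 0.52 for H4, NA was 0.15 for all, and BA was -0.12 for all and turned for H2aw (-0.0070) and H2bc21 (-0.023). With only the brighter genes, NB was 0.32 for all and 0.56 for H4 with 2 called, NA was 0.021 for H2B with 0 called (3 at an unadjusted p under 0.05), and BA was -0.21 for all, -0.11 for H2A, -0.16 for H2B and -0.32 for H4. With the mean of probe sets, BA for H4 was -0.16. With trend and robust variance, NA had 0 called (5 at an unadjusted p under 0.05). With the receptor gene covariate, NB was 0.24 for all, 0.094 for H1, 0.19 for H2A and 0.30 for H4, NA was -0.052 for H1 and 0.19 for H2A with 0 called (2 at an unadjusted p under 0.05) and turned for H1f3 (-0.082), H1f6 (0.039), H2af-ps2 (0.15) and H2bc12 (1.01), and BA was -0.13 for all and -0.072 for H2A and turned for H2aw (-0.0098) and H2bc21 (-0.020).

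After each gene's group mean was subtracted, same-numbered arrays correlated at -0.07 (alone and B-cell), 0.07 (alone and neutrophil) and -0.15 (B-cell and neutrophil). With 2 arrays a group, such weak correlations cannot show whether the replicate numbers pair the arrays. With the replicate block, NA had 2 called (H2bu1-ps and H4c14, the latter with an adjusted p of 0.0397, limma), against 373 of 22180 genes, and with the crossed pairing of the B-cell numbers, chosen after seeing the data, NB had 1 called (H2bc9), against 299 of 22180 genes.

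Leaving out each array in turn, the number called ran from 0 to 11 for NB (11 without B-cell replicate 1, when 5453 of all genes were called), from 0 to 1 for NA and was 0 for BA. The NB medians ran from 0.23 to 0.30 for all members, 0.23 to 0.38 for H1, 0.050 to 0.16 for H2A, 0.14 to 0.31 for H2B and 0.41 to 0.45 for H4. The NA medians ran from 0.057 to 0.11, 0.074 to 0.16, 0.019 to 0.13, 0.039 to 0.22 and 0.052 to 0.17 in the same order. The BA medians ran from -0.12 to -0.067, -0.23 to -0.070, -0.11 to 0.012, -0.12 to -0.019 and -0.27 to -0.19. Single members changed sign in BA for H2aw (-0.089 to 0.13), H2bc1 (-0.040 to 0.11), H2bc21 (-0.028 to 0.038) and H2bu1-ps (-0.019 to 0.16), in NB for H2bc1 (-0.28 to 0.0023) and H4c2 (-0.032 to 0.087), and in NA for H2bc1 (-0.25 to 0.039) and H4f16 (-0.088 to 0.13). The causes were not tested. H3 had no single-gene probe set, so its planned medians could not be given, and no comparison of protein sequences was run.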
